A study of Mus musculus with 11 samples.

Results

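NK receptors are the surface proteins through which natural killer (NK) cells and related innate lymphoid cells read a target cell, and 10 of their genes were measured in CD24-negative, TCRβ-negative thymocytes of newborn and young mice. The genes were taken from a list of symbols, by a rule that used no measured value but was drawn up with earlier results of these data known: Ncr1, Klrk1, Klrd1, Klrc1, Klrc2, Klrb1c, Klrb1b, Klre1, Cd160 and Cd244a. They are 10 of the 53402 genes listed in both of the study's count tables, and all 10 passed the filter on low counts in each table.

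NK cells carry activating and inhibitory receptors that act together. Many activating receptors carry no signalling motif of their own and join small adaptor proteins that recruit kinases, whereas inhibitory receptors typically carry a motif that recruits phosphatases, and the balance decides whether the cell kills or secretes cytokine. Many of them are C-type lectin-like proteins encoded side by side in the NK gene complex, which in the mouse lies on chromosome 6. In the thymus, the transcription factors Bcl11b and TCF-1, the product of Tcf7, are known for guiding progenitors into the T lineage, while NK cells and innate lymphoid cells use overlapping sets of these receptors.

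Libraries were grouped by the genotype in their titles, and all came from thymocytes purified by flow cytometry. At postnatal day 0 there were 2 Bcl11b D/N440K libraries, 2 Bcl11b +/N440K libraries and 2 Bcl11b +/+ libraries. N440K is an amino acid change in the Bcl11b protein. What D stands for is not said in the labels. At postnatal day 7 there were 3 libraries labelled Tcf7 F/F:Vav1-Cre and 2 Tcf7 +/+ libraries. F/F denotes a pair of floxed alleles, and Vav1 drives the Cre recombinase in blood cells, so the genotype is not limited to the sorted cells. The labels do not say whether libraries of a group came from separate mice, so p-values measure the spread between these libraries, which may be technical.

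Total counts per library ran between 999381 and 1842717, with 17544 to 20480 genes seen. Counts on the Tcf7 gene averaged 733.1 ± 100 CPM (counts scaled to a common library size; SD, n = 3) in libraries labelled Tcf7 F/F:Vav1-Cre and 572.9 ± 29.2 CPM (n = 2) in Tcf7 +/+ libraries. This was a log2 fold change of 0.35 (edgeR adjusted p = 0.0497), so the count over the whole gene did not fall with the label and does not check the deletion. The Tcf7 +/+ pair differed more than any other pair, with a chi-square of 4.94 per degree of freedom, against 1.14 to 2.16 in the other pairs. Reads of 4 Y-linked genes numbered 0, 555 and 2 in Tcf7 F/F:Vav1-Cre replicates 1, 2 and 3. In the Tcf7 +/+ libraries they numbered 556 and 715, so sex was not balanced between these groups. Every Bcl11b library held 177 to 239 such reads beside 351 to 602 reads of Xist, a transcript of female cells. Each Bcl11b library therefore held RNA of both sexes, and so of more than a single mouse. The p-values of that table do not measure the spread between single mice.

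The sorted cells expressed the defining genes of NK cells and type 1 innate lymphoid cells, beside those of other lymphocytes. A list of 12 NK and ILC1 markers, 2 of them receptors described here, summed to 4336 to 4421 CPM in D/N440K libraries, 3893 to 4125 CPM in +/N440K libraries and 2524 to 2574 CPM in Bcl11b +/+ libraries, with 11 of 11 tested markers called higher in D/N440K and 10 of 11 in +/N440K. The same list summed to 1812 to 2113 CPM in Tcf7 F/F:Vav1-Cre libraries and 2003 to 2300 CPM in Tcf7 +/+ libraries, ranges that overlap. Of its 12 markers, however, 7 were called lower in Tcf7 F/F:Vav1-Cre (among them Ncr1, Klrb1c, Eomes and Ifng) and 1, Gzmb, higher, with a median log2 fold change of -0.90. Over all genes tested, 6.1% were called higher in D/N440K and 4.79% in +/N440K. The shares in Tcf7 F/F:Vav1-Cre were 12% higher and 11.1% lower. The marker lists, like the receptor genes, were chosen with earlier results of these data known. In every group all 12 markers were detected. In such bulk samples, fewer cells of a type and less RNA per cell cannot be told apart.

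Markers of other cells moved with the groups. Over all genes tested, 6.1% were called higher and 6.31% lower in D/N440K, and 4.79% and 5.3% in +/N440K. The shares in Tcf7 F/F:Vav1-Cre were 12% and 11.1%. In D/N440K libraries 8 of 9 tested markers of αβ T cells and of the sort gate were lower than in +/+ libraries, the list summing to 602.9 to 632.1 CPM in D/N440K, 692.8 to 730.4 CPM in +/N440K and 1423 to 1463 CPM in +/+. In +/N440K 7 of the 9 were lower. Markers of γδ T cells summed to 2174 to 2176 CPM in D/N440K, 2274 to 2319 CPM in +/N440K and 3091 to 3505 CPM in +/+, with Il17a at 0 in both mutant groups, and 5 and 4 of 7 tested were lower in D/N440K and +/N440K. Markers of ILC3 and ILC2 summed to 276.8 to 315.2 CPM in D/N440K, 439.9 to 442.2 CPM in +/N440K and 635.1 to 725.3 CPM in Bcl11b +/+, with 4 of 7 tested lower in D/N440K (median log2 -1.33) and 3 of 7 in +/N440K (median log2 -0.53). Il22 was at 0 in both Bcl11b mutant groups and Il5 in +/N440K and +/+. The direction was opposite in the other table. In Tcf7 F/F:Vav1-Cre libraries 6 of 7 tested markers of ILC3 and ILC2 were higher (median log2 1.56), the list summing to 1571 to 1655 CPM, against 604.1 to 642 CPM in Tcf7 +/+ libraries, with Il22 at 0 in the Tcf7 F/F:Vav1-Cre libraries and Il5 at 0 in the Tcf7 +/+ libraries. Their αβ and sort-gate list summed to 759.4 to 790.1 CPM, against 1456 to 1484 CPM in Tcf7 +/+, and their γδ list to 1268 to 1592 CPM, against 1815 to 2226 CPM. In these lists 7 of 9 and 5 of 8 tested markers were lower, and 1 αβ or sort-gate marker was higher. Myeloid and dendritic markers summed to 629.5 to 657.5 CPM in D/N440K, 486.4 to 597.2 CPM in +/N440K and 383.6 to 392.7 CPM in Bcl11b +/+, and to 1827 to 1938 CPM in Tcf7 F/F:Vav1-Cre, against 998.2 to 1533 CPM in Tcf7 +/+. Of 8 tested, 4 were higher and 1 lower in D/N440K, 3 higher and 1 lower in +/N440K, and 3 higher in Tcf7 F/F:Vav1-Cre.

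B-lineage and erythroid and stromal markers were low and also moved with the groups. The shares of all genes called in each comparison are those given above for the other markers. B-lineage markers summed to 9.16 to 11.99 CPM in D/N440K, 13.87 to 21.71 CPM in +/N440K and 29.67 to 35.7 CPM in Bcl11b +/+, where 1 marker was tested and was lower in D/N440K, and Ms4a1 and Pax5 were at 0 in all 3 groups. They summed to 43.51 to 56.61 CPM in Tcf7 F/F:Vav1-Cre, against 150.5 to 158.3 CPM in Tcf7 +/+, with 5 of 6 tested lower (median log2 -2.45). Erythroid and stromal markers summed to 78.79 to 104.8 CPM in D/N440K, 29.61 to 46.52 CPM in +/N440K and 30.72 to 62.4 CPM in +/+, with the globin genes Hba-a1 (log2 2.38) and Hbb-bs (log2 1.58) higher in D/N440K and Foxn1 at 0 in these libraries. They summed to 26.15 to 35.6 CPM in Tcf7 F/F:Vav1-Cre, against 14.09 to 15.22 CPM in Tcf7 +/+, where Krt8 was higher (log2 2.69). The part of these cells in the receptor results was not tested.

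Of the 10 genes, 7 lie within a span of 900.5 kb on chromosome 6 (GRCm38, chr6:128778485-129678973), with Klrb1c and Klrb1b at its left end and Klre1, Klrd1, Klrk1, Klrc2 and Klrc1 together at its right end. Ncr1 lies on chromosome 7 (chr7:4337724-4345164, plus strand), Cd160 on chromosome 3 (chr3:96798763-96829351, minus strand) and Cd244a on chromosome 1 (chr1:171559193-171609746, plus strand). Exons of Klrb1c and Klrb1b overlap a read-through locus on the same strand, Gm44511, which had 0 counts in every library. This does not show that the locus was silent, because reads in shared exons cannot be assigned to it alone. Reads in the 413 bases shared by Klrb1c and the 599 shared by Klrb1b may also have gone uncounted. Of the 50-base stretches of the exons, 38.6% in Klrc1, 27.2% in Klrb1b, 17% in Klrb1c and 16.3% in Klrc2 occur in another gene as well, and in Klrc1 most of these lie in Klrc2. Counts of these 4 genes are therefore less certain than those of the other 6, where the share was at most 0.72%. Cd160 overlaps Pdzk1 on the opposite strand by 68 bases of exon, and the strand of counting is not given in the sources used here.

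The start regions of 9 of the 10 genes were read from RefSeq on GRCm38.p6, as windows of 250 bases before to 50 bases after each annotated start, 14 windows in all. The 4 windows shown are those of the gene with the largest rise in the Bcl11b mutants (Ncr1), of the pair of neighbours that moved apart in the Tcf7 comparison (Klrb1c and Klrb1b) and of the gene with the largest fall there (Cd160). Capitals mark matches, on either strand, to RUNX letters TGTGGTT, T-box letters GGTGTGA or BCL11 letters TGACCA. TCF/LEF letters CTTTGAT were searched too and were found in none of the 14 windows. Each motif was searched in this spelling alone, so other spellings were not counted. CTTTGAA, for example, which is close to the TCF/LEF letters, stands in the Cd160 window shown.
Ncr1, chr7:4337465-4337764, plus strand: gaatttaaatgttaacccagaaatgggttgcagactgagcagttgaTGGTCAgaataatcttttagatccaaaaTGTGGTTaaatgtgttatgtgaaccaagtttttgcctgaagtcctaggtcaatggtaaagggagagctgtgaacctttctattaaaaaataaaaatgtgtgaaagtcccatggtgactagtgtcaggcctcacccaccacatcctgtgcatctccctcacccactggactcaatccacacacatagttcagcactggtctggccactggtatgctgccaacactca
Klrb1c, chr6:128788592-128788891, minus strand: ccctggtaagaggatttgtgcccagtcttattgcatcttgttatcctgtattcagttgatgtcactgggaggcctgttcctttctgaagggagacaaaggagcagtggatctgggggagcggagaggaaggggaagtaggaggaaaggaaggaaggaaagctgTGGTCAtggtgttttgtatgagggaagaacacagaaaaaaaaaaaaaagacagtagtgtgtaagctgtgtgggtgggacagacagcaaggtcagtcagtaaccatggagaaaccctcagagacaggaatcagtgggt
Klrb1b, chr6:128826266-128826565, minus strand: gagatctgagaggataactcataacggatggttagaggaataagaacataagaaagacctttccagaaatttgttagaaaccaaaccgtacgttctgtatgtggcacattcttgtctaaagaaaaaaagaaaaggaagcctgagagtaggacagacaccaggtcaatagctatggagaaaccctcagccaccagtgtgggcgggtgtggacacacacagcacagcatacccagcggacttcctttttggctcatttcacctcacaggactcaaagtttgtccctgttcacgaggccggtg
Cd160, chr3:96814472-96814771, minus strand: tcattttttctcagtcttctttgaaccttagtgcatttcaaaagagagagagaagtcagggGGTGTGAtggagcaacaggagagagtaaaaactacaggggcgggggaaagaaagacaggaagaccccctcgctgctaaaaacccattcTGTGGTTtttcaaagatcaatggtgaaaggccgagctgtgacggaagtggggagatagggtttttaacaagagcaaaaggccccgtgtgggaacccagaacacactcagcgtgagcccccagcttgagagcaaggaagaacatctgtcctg
The Ncr1 window held BCL11 letters, read as TGGTCA on the strand shown, and RUNX letters. The Klrb1c window held BCL11 letters alone and the Klrb1b window held none of the searched letters. The Cd160 window shown held T-box and RUNX letters. Ncr1, Klrb1b and Cd160 have 2 windows each, and the first is shown for Ncr1 and Klrb1b but the second for Cd160. The first Cd160 window, at chr3:96829302-96829601, held RUNX letters alone. RUNX letters occurred in 6 of the 14 windows, from 4 of the 9 genes (Ncr1, Klrk1, Klre1 and Cd160), and in 5.27% of 32851 windows of all genes. Windows of the same gene can overlap. The 2 Ncr1 windows do, so their RUNX letters were counted in both. BCL11 letters occurred in windows of Ncr1 and Klrb1c and in 13.6% of all windows, T-box letters in 1 window of Cd160 and in 3.98%, and TCF/LEF letters in 3.73% of all windows. The Klrb1b and Klrb1c windows were identical at 62.1% of 248 aligned bases, with 104 gap columns left out. By the same method, the Klrk1 and Klrc1 windows were identical at 61% and those of Klrc1 and Klrc2 at 58.6%. A match describes letters and says nothing of binding.

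Levels were compared between genes as CPM per kb of exon, taken over the union of all annotated exons of a gene. This length ran from 1281 bases in Klrd1 to 7183 in Klrk1, so the order below depends on it. By CPM alone, Cd244a stood above Klrd1 in D/N440K, at 358.1 and 229.4 CPM. Klrd1, which encodes CD94, the partner chain of the NKG2 proteins, had the highest level in 4 of the 5 groups, with 179 CPM per kb in D/N440K, 183 in +/N440K and 109 in Bcl11b +/+, and 110 in Tcf7 +/+. In Bcl11b +/+ the order went on with Cd160 at 39.8, Cd244a at 37.8, Klrc1 at 20.3, Klrb1c at 18.7, Klrk1 at 12.9, Ncr1 at 11, Klrb1b at 9.85, Klrc2 at 9.42 and Klre1 at 6.85 CPM per kb. There Klrc1 and Klrb1c overlapped in range, and so did each neighbouring pair from Klrk1 to Klrc2. Ncr1 was 2nd in D/N440K at 83.4 CPM per kb, 3rd in +/N440K at 52.5, and 7th in Bcl11b +/+. In +/N440K its range overlapped those of Cd244a above it and Cd160 below it. Ncr1 was 2nd in Tcf7 +/+ as well, at 66.4 CPM per kb. In Tcf7 F/F:Vav1-Cre libraries Klrb1b stood first with 56.3 CPM per kb, followed by Cd244a at 47.7 and Klrd1 at 42, and the ranges of these neighbours overlapped. In Tcf7 +/+ libraries Klrb1b was 8th with 17.6 CPM per kb.

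**Figure D1:**
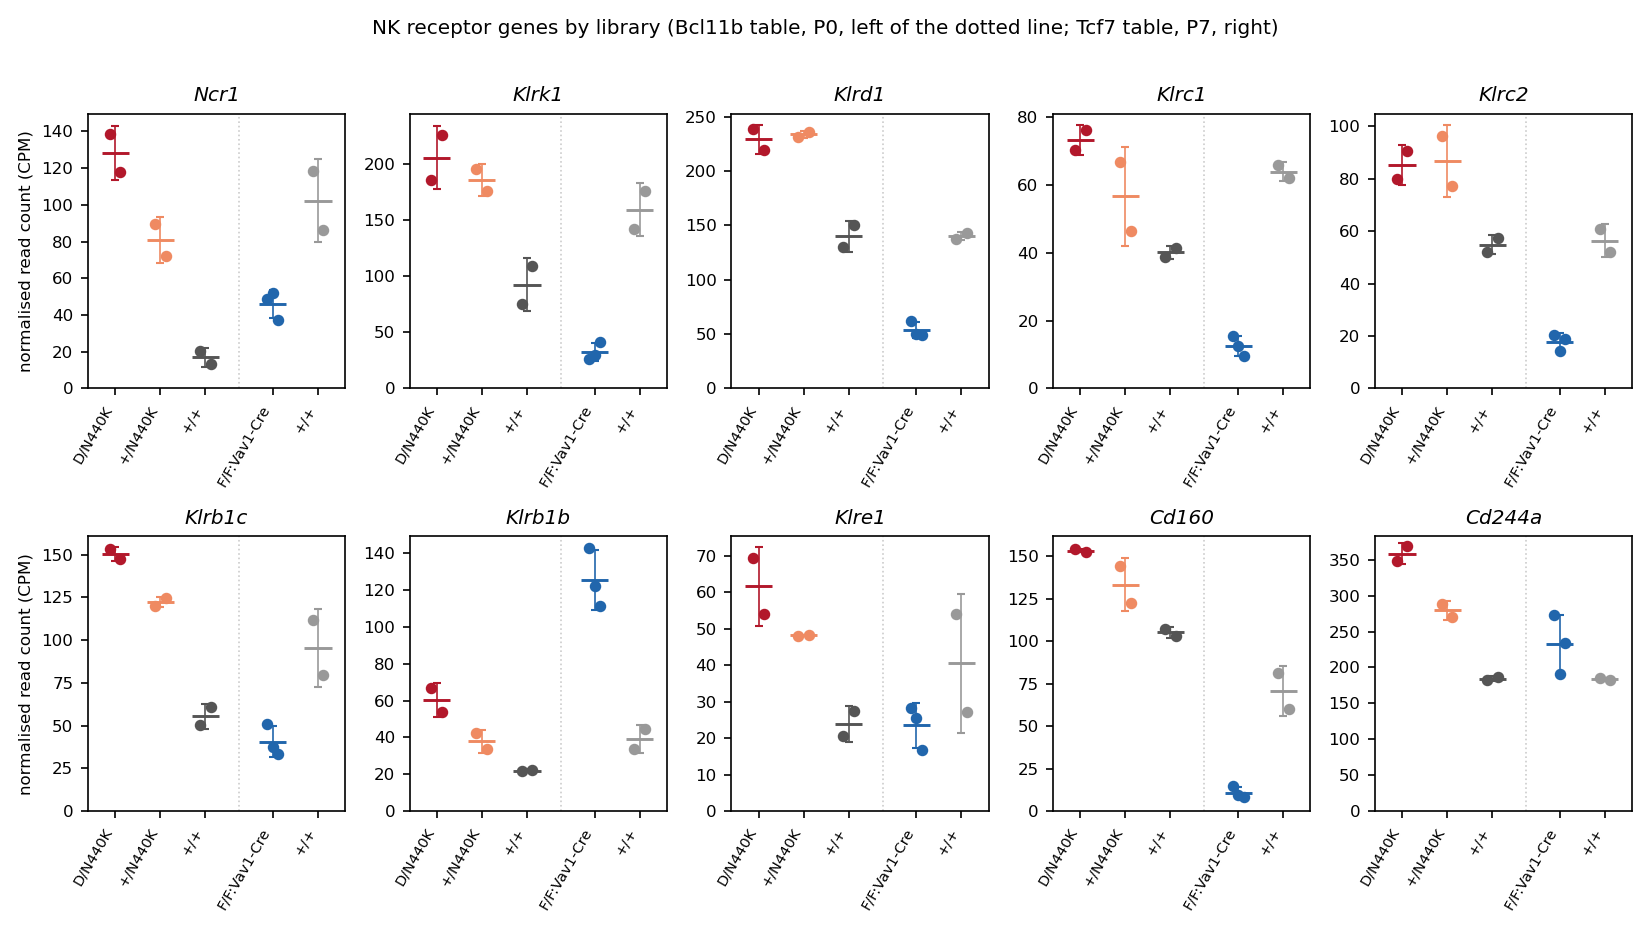
Each panel plots the CPM of 1 gene (linear axis from 0) in every library as points, with the group mean as a line and the SD as a bar, for D/N440K, +/N440K and +/+ at postnatal day 0 left of the dotted line and Tcf7 F/F:Vav1-Cre and Tcf7 +/+ at postnatal day 7 right of it. All 10 genes had both D/N440K points above both Bcl11b +/+ points, and Klrb1b rose in the Tcf7 F/F:Vav1-Cre libraries where 7 other genes fell.

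All 10 receptor genes rose in Bcl11b D/N440K thymocytes relative to Bcl11b +/+, and 8 of the 10 rose in +/N440K thymocytes. The largest change was that of Ncr1, which was 7.77-fold higher in D/N440K and 4.92-fold higher in +/N440K. Of the 10910 genes tested, edgeR's quasi-likelihood test called 6.1% higher in D/N440K and 4.79% higher in +/N440K at an adjusted p (Benjamini-Hochberg) under 0.05. The median log2 fold change over the 10 genes was 1.04 in D/N440K and 0.76 in +/N440K, and over all genes tested it was 0.00 in each. Both mutant groups were set against the same 2 Bcl11b +/+ libraries, so their results are not independent. In each comparison all 10 genes had both mutant values above both +/+ values, a pattern that 25.3% of all tested genes showed for D/N440K and 24% for +/N440K. With DESeq2 in place of edgeR, 7 of the 10 were called in D/N440K and 5 in +/N440K. The count of 8 in +/N440K was 5 without +/+ replicate 1 and 10 without +/N440K replicate 2.

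Ncr1 and Klrk1 encode activating receptors. The product of Ncr1 is NKp46, which marks NK cells and some innate lymphoid cells. It had 138.7 and 118.1 CPM in D/N440K, 89.77 and 72.05 CPM in +/N440K, and 20.46 and 13.28 CPM in +/+ libraries. The 3 groups did not overlap, and the log2 fold change was 2.96 ± 0.215 (SE; edgeR adjusted p = 1.05e-13) in D/N440K and 2.30 ± 0.236 (adjusted p = 1.76e-09) in +/N440K. Klrk1 encodes NKG2D, which reads stress-induced ligands such as those of the Raet1 and H60 families and Ulbp1. It had 185.8 and 226 CPM in D/N440K, 195.9 and 175.7 CPM in +/N440K, and 75.7 and 109.6 CPM in +/+. Both mutant groups lay above +/+ and overlapped each other, with log2 fold changes of 1.12 ± 0.141 (edgeR adjusted p = 9.06e-08) and 0.99 ± 0.143 (adjusted p = 2.14e-06).

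CD94 pairs with NKG2A, the inhibitory product of Klrc1, or with NKG2C, the activating product of Klrc2, and these pairs read the class Ib molecule Qa-1, encoded by H2-T23. Klrd1 had 238.9 and 219.8 CPM in D/N440K, 231.8 and 235.9 CPM in +/N440K, and 129.9 and 150.3 CPM in +/+. It rose by nearly the same log2 amount in both mutants, 0.71 ± 0.115 in D/N440K (edgeR adjusted p = 1.33e-05) and 0.73 ± 0.114 in +/N440K (adjusted p = 8.4e-06). Klrc1 had 70.23 and 76.34 CPM in D/N440K, 66.92 and 46.39 CPM in +/N440K, and 38.87 and 41.51 CPM in +/+. Its 2 +/N440K libraries stood far apart, and it was called in D/N440K, at log2 0.86 ± 0.199 (edgeR adjusted p = 0.00181), but not in +/N440K, at 0.51 ± 0.207 (adjusted p = 0.125), where it was called without +/N440K replicate 2 (0.73). With DESeq2 the D/N440K call of Klrc1 was lost (log2 0.86, DESeq2 adjusted p = 0.109). Klrc2 had 79.65 and 90.58 CPM in D/N440K, 96.3 and 76.99 CPM in +/N440K, and 52.17 and 57.29 CPM in +/+, which gave log2 0.62 ± 0.175 (edgeR adjusted p = 0.0114) and 0.67 ± 0.172 (adjusted p = 0.00671). The inhibitory and the activating NKG2 chain therefore both had their higher values in the mutants. The Klrc2 call was lost in +/N440K without +/+ replicate 1 (0.61) or without +/N440K replicate 1 (0.49), and in D/N440K without +/+ replicate 1 (0.56) or D/N440K replicate 2 (0.54). It was lost with DESeq2 in both, at log2 0.66 in +/N440K (DESeq2 adjusted p = 0.262) and 0.63 in D/N440K (adjusted p = 0.261).

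The NKR-P1 genes rose as well. Klrb1c encodes NK1.1, the activating receptor by which mouse NK cells are commonly stained, and had 153.3 and 147.6 CPM in D/N440K, 120 and 124.4 CPM in +/N440K, and 50.13 and 60.61 CPM in +/+. The 3 groups did not overlap, with log2 fold changes of 1.43 ± 0.15 (edgeR adjusted p = 1.38e-09) in D/N440K and 1.13 ± 0.155 (adjusted p = 8.47e-07) in +/N440K. Klrb1b encodes an inhibitory receptor of the same family that reads Clr-b, the product of Clec2d. It had 66.8 and 53.94 CPM in D/N440K, 42.44 and 33.56 CPM in +/N440K, and 21.48 and 22.42 CPM in +/+. It rose by 1.46 ± 0.238 (edgeR adjusted p = 1.28e-05) in D/N440K and 0.80 ± 0.26 (adjusted p = 0.0402) in +/N440K, and the +/N440K call was lost in 8 of 17 alternative analyses, among them those with DESeq2 (0.79), without either +/+ library (0.77 and 0.83) or without +/N440K replicate 1 (0.61). Klre1, whose product pairs with the Klri chains, had 69.37 and 53.94 CPM in D/N440K, 48.15 and 48.36 CPM in +/N440K, and 20.46 and 27.4 CPM in +/+. Its groups did not overlap, with log2 1.35 ± 0.231 (edgeR adjusted p = 2.73e-05) and 0.99 ± 0.242 (adjusted p = 0.004), and the +/N440K call was lost without +/+ replicate 1 (0.81) and with DESeq2 (log2 1.00, DESeq2 adjusted p = 0.147).

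Cd160 and Cd244a lie outside the NK gene complex. Cd160 encodes a receptor of the immunoglobulin superfamily that binds HVEM, the product of Tnfrsf14, and had 154.2 and 152.7 CPM in D/N440K, 144.4 and 122.4 CPM in +/N440K, and 107.4 and 102.9 CPM in +/+. It rose in D/N440K by 0.55 ± 0.132 (edgeR adjusted p = 0.00272), a call that was lost with DESeq2 (log2 0.54, DESeq2 adjusted p = 0.137). Its +/N440K value of 0.35 ± 0.134 did not pass (adjusted p = 0.0937) except without +/N440K replicate 2 (0.46). Cd244a encodes 2B4, a receptor of the SLAM family that binds CD48. It had 347.7 and 368.4 CPM in D/N440K, 288.9 and 270.4 CPM in +/N440K, and 182.1 and 186.8 CPM in +/+, with replicates close to each other. Its log2 fold changes were 0.95 ± 0.0989 (edgeR adjusted p = 1.2e-09) and 0.60 ± 0.102 (adjusted p = 3.7e-05).

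**Figure D2:**
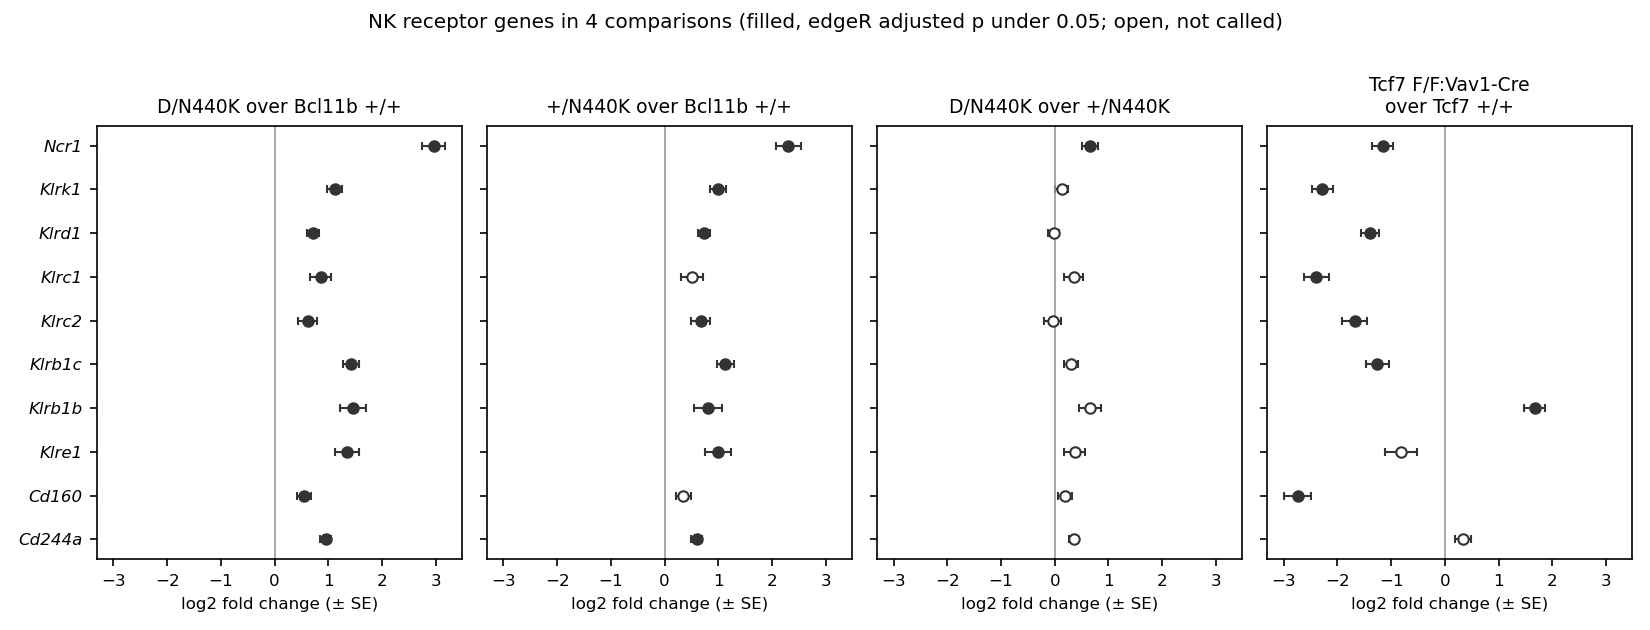
The log2 fold change ± SE (edgeR) of each receptor gene is plotted on a common axis for D/N440K over Bcl11b +/+, +/N440K over Bcl11b +/+, D/N440K over +/N440K, and Tcf7 F/F:Vav1-Cre over Tcf7 +/+, with filled points called at an adjusted p under 0.05. The points lie right of 0 in both mutant comparisons, between -0.04 and 0.66 for D/N440K over +/N440K and mostly left of 0 in the Tcf7 comparison, where Klrb1b lies at 1.67.

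D/N440K and +/N440K differed in 1 of the 10 genes, against 0.284% of all genes called higher. Ncr1 was higher in D/N440K (log2 0.66 ± 0.15, edgeR adjusted p = 0.0252). The call did not hold in 5 of 17 alternatives, among them DESeq2 (0.67) and the analyses without +/N440K replicate 2 (0.52) and without D/N440K replicate 1 (0.53). Klrb1b differed by the same 0.66 ± 0.209 and was not called (edgeR adjusted p = 0.18), and Cd244a differed by 0.35 ± 0.0916 (adjusted p = 0.0645). Cd244a was called without +/+ replicate 2 (0.36), where the spread was estimated from fewer libraries. Klrk1, Klrd1 and Klrc2 had log2 differences of 0.13, -0.02 and -0.04, with overlapping libraries. The other 7 genes had both D/N440K values above both +/N440K values, as did 17.8% of all genes tested.

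In libraries labelled Tcf7 F/F:Vav1-Cre, 7 of the 10 receptor genes fell relative to Tcf7 +/+ and 1, Klrb1b, rose. The falls ran from 2.23-fold in Ncr1 to 6.7-fold in Cd160, and Klrb1b was 3.18-fold higher. edgeR called 11.1% of 12366 tested genes lower and 12% higher. The median log2 fold change of the 10 genes was -1.33, against -0.01 over all genes tested. The 7 genes that fell had all 3 Tcf7 F/F:Vav1-Cre values below both Tcf7 +/+ values, as did 24.1% of all genes tested. Klrb1b and Cd244a had all values above, as did 24.7%. The count of 7 was the same in each analysis that left out 1 library except that without Tcf7 +/+ replicate 2, where it was 8.

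Cd160 fell the most. It had 14.56, 9.605 and 8.345 CPM in Tcf7 F/F:Vav1-Cre libraries, against 81.14 and 60.31 CPM in Tcf7 +/+ libraries. The groups lay far apart, with a log2 fold change of -2.74 ± 0.258 (edgeR adjusted p = 5.24e-07), which rests on 50 reads in the 3 Tcf7 F/F:Vav1-Cre libraries. The same gene had the smallest rise in D/N440K thymocytes.

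The NKG2 genes fell together. Klrc1 had 15.36, 12.43 and 9.458 CPM in Tcf7 F/F:Vav1-Cre, against 65.93 and 62 CPM in Tcf7 +/+, a log2 fold change of -2.39 ± 0.238 (edgeR adjusted p = 1.02e-06). Klrk1 had 26.69, 29.38 and 41.17 CPM in Tcf7 F/F:Vav1-Cre, against 142.6 and 176.4 CPM in Tcf7 +/+, a log2 fold change of -2.28 ± 0.192 (adjusted p = 1.68e-07). In both genes every Tcf7 F/F:Vav1-Cre library lay below the lower Tcf7 +/+ library by more than the range of its own group. Klrc2 had 20.22, 14.13 and 18.92 CPM in Tcf7 F/F:Vav1-Cre, against 60.86 and 51.86 CPM in Tcf7 +/+ (log2 -1.68 ± 0.228, edgeR adjusted p = 3.7e-05). Klrd1 had 62.27, 49.72 and 49.51 CPM in Tcf7 F/F:Vav1-Cre, against 137.5 and 143.2 CPM in Tcf7 +/+ (log2 -1.39 ± 0.163, adjusted p = 7.14e-06). CD94 thus kept a larger share of its transcript than its NKG2A partner did. Per Klrd1 read there were 0.247, 0.25 and 0.191 Klrc1 reads in Tcf7 F/F:Vav1-Cre and 0.48 and 0.433 in Tcf7 +/+, groups that did not overlap. Klrc2 reads per Klrd1 read overlapped, at 0.284 to 0.382 in Tcf7 F/F:Vav1-Cre and 0.362 to 0.443 in Tcf7 +/+.

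Ncr1 and Klrb1c, the usual identity markers of NK cells, fell by smaller amounts. Ncr1 had 48.52, 51.98 and 37.28 CPM in Tcf7 F/F:Vav1-Cre, against 118.3 and 86.24 CPM in Tcf7 +/+ (log2 -1.16 ± 0.2, edgeR adjusted p = 0.000367). The call was lost with the sex of the library as a term, at -0.98 (edgeR adjusted p = 0.0532). Klrb1c had 50.95, 37.29 and 33.38 CPM in Tcf7 F/F:Vav1-Cre, against 111.6 and 79.47 CPM in Tcf7 +/+ (log2 -1.26 ± 0.214, edgeR adjusted p = 0.000334). The 2 Tcf7 +/+ libraries differed widely in both genes. They differed most in Klre1, which had 28.3, 25.43 and 16.69 CPM in Tcf7 F/F:Vav1-Cre, against 54.09 and 27.05 CPM in Tcf7 +/+. Klre1 did not pass (log2 -0.81 ± 0.295, edgeR adjusted p = 0.0566), and was called at -1.23 without Tcf7 +/+ replicate 2 but stood at -0.23 without replicate 1.

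Klrb1b went the other way from its neighbour Klrb1c. It had 143.1, 122 and 111.3 CPM in Tcf7 F/F:Vav1-Cre, against 33.81 and 44.53 CPM in Tcf7 +/+, with every value above. The log2 fold change of 1.67 ± 0.19 (edgeR adjusted p = 5.23e-06) was called in all 16 alternatives, with a range of 1.48 to 1.88. Cd244a had 272.5, 190.4 and 234.2 CPM in Tcf7 F/F:Vav1-Cre, against 184.8 and 182.1 CPM in Tcf7 +/+, and did not pass (log2 0.34 ± 0.151, edgeR adjusted p = 0.122). These were the only receptor genes of the 10 with a positive value. Per Klrb1c read, Klrb1b had 2.81, 3.27 and 3.33 reads in Tcf7 F/F:Vav1-Cre libraries and 0.303 and 0.56 in Tcf7 +/+ libraries. In the Bcl11b table the D/N440K ratios overlapped those of +/+ and the +/N440K ratios lay below them, with 0.436 and 0.366 in D/N440K, 0.354 and 0.27 in +/N440K, and 0.429 and 0.37 in +/+.

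**Figure D3:**
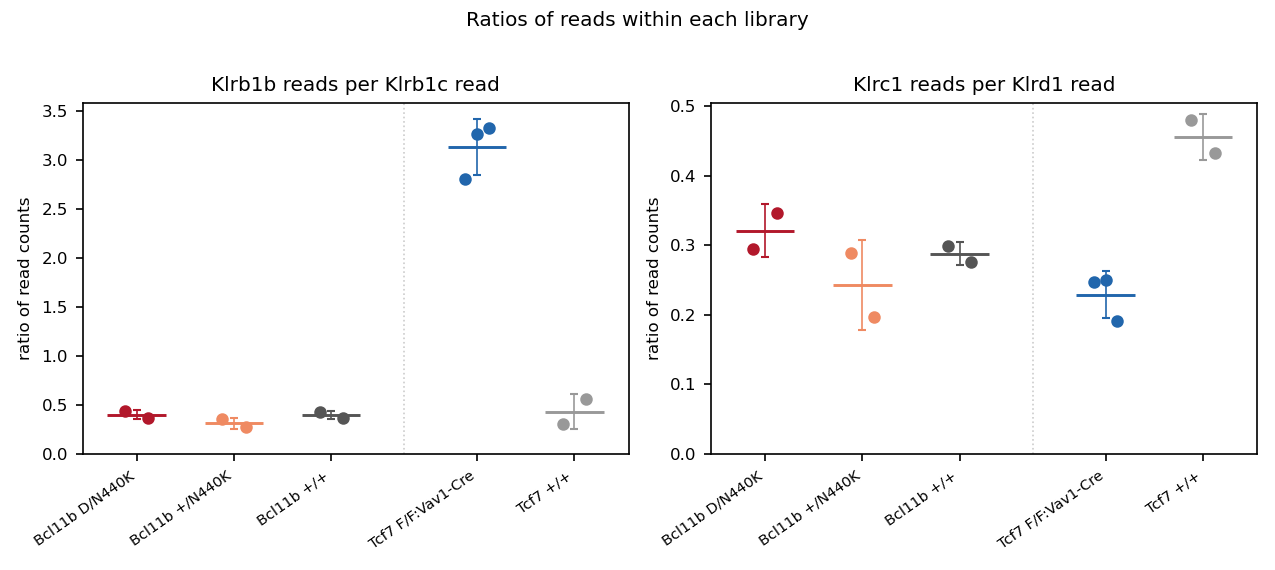
Reads of Klrb1b per read of Klrb1c (left) and of Klrc1 per read of Klrd1 (right) are plotted for each library on linear axes from 0, with the group mean as a line and the SD as a bar. The 3 Tcf7 F/F:Vav1-Cre libraries lie at 2.81 to 3.33 Klrb1b reads per Klrb1c read, above the other 8 libraries at 0.27 to 0.56, and at 0.191 to 0.25 Klrc1 reads per Klrd1 read, below Tcf7 +/+ at 0.433 to 0.48.

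The Bcl11b and Tcf7 effects were then compared in 1 edgeR model over all 11 libraries, each set against its own +/+ group. The D/N440K effect was higher than the Tcf7 F/F:Vav1-Cre effect in 9 of the 10 genes (background 5.66% of 12249 genes), and the +/N440K effect in 8 of 10 (5.63%). The largest difference was that of Ncr1, 4.11 ± 0.32 on the log2 scale for D/N440K (adjusted p = 1.07e-09). Klrb1b, which rose in D/N440K and in Tcf7 F/F:Vav1-Cre, had a difference of -0.21 ± 0.319 for D/N440K that did not pass (adjusted p = 0.752). For +/N440K its difference was -0.87 ± 0.333 (adjusted p = 0.0976). Age and table differ between the 2 sets of libraries and cannot be told apart from genotype here.

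Of the 51 genes annotated in the chromosome 6 span, 44 are other than the 7 receptor genes, and few of them had enough reads to test. In D/N440K, 9 of these were tested: Klrb1f, another NKR-P1 gene, rose by 1.09 ± 0.177 (edgeR adjusted p = 1.26e-05), while BC035044 (log2 -1.13) and Clec2i (log2 -1.18) fell. Clec2d and Cd69 in the middle of the span had log2 values of -0.01 and -0.21 and were not called. In Tcf7 F/F:Vav1-Cre, 13 were tested: Klrc3, beside Klrc2, fell (log2 -1.51 ± 0.516, edgeR adjusted p = 0.0401), and so did BC035044 (log2 -0.70). Olr1 and Clec7a, lectin-like receptors known from myeloid and other cells, rose by 2.49 ± 0.799 and 0.74 ± 0.217 there. In all, 1 of the 9 neighbours rose and 2 fell in D/N440K, where 6.1% and 6.31% of all genes tested were called higher and lower. In Tcf7 F/F:Vav1-Cre, 2 of the 13 rose and 2 fell, against 12% and 11.1% of all genes tested. Counts this small do not set the neighbours apart from all genes.

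**Figure D4:**
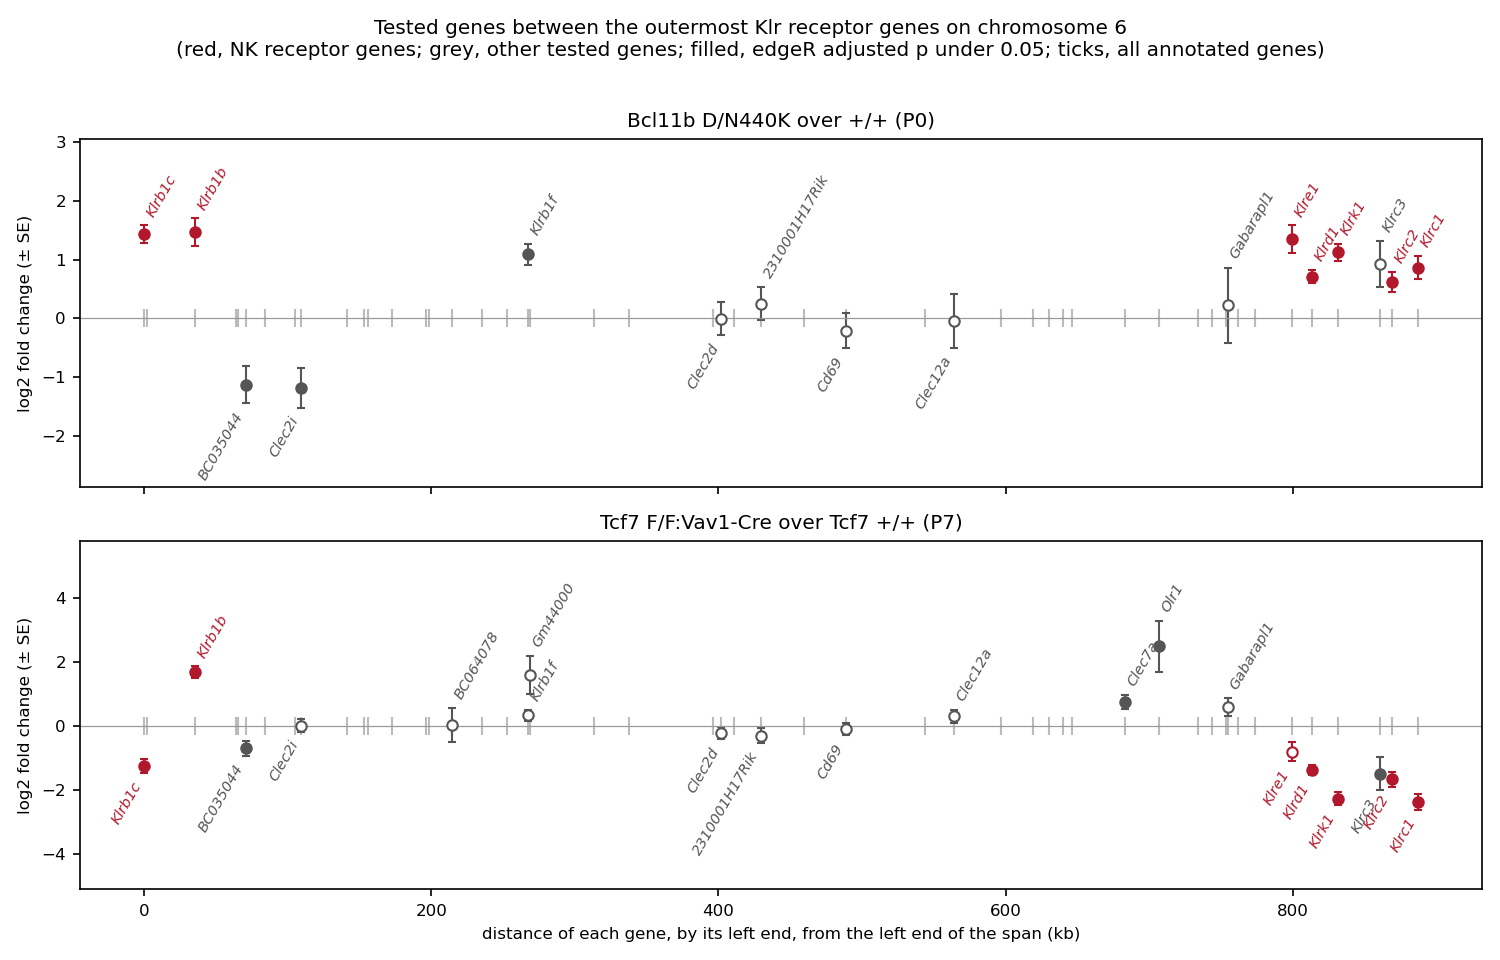
The log2 fold change ± SE of each tested gene between Klrb1c and Klrc1 on chromosome 6 is plotted against its distance in kb from the left end of the span, for D/N440K over +/+ (top) and Tcf7 F/F:Vav1-Cre over Tcf7 +/+ (bottom), with receptor genes described here in red, other genes in grey and called genes filled. In the lower plot Klrb1b stands at 1.67, apart from Klrb1c at -1.26 at the left end and from the falling group at the right end.

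The list of adaptors and proximal signalling genes, which also holds genes of T-cell receptor signalling such as Plcg1 and Lat, did not follow the receptors as a group. Of 19 tested adaptors and proximal signalling genes, 5 rose and 4 fell in D/N440K and likewise in +/N440K, and 2 rose and 4 fell in Tcf7 F/F:Vav1-Cre, with list medians of 0.01, 0.02 and -0.01. Over all genes tested, 6.1% were called higher and 6.31% lower in D/N440K, and 4.79% and 5.3% in +/N440K. For Tcf7 F/F:Vav1-Cre these shares were 12% and 11.1%. In D/N440K, Tyrobp, which encodes DAP12, averaged 151 ± 2 CPM, against 89.65 ± 2.37 CPM in +/+ (log2 0.75, edgeR adjusted p = 7.43e-05), and Fcer1g, the Fc receptor γ chain used by NKp46 and NK1.1, averaged 240.8 ± 20.8 CPM, against 154.8 ± 1.86 CPM (log2 0.63, adjusted p = 6.38e-05). Cd247, the CD3ζ chain that NKp46 also uses, fell to 51.4 ± 3.61 CPM in D/N440K, against 138.5 ± 4.9 CPM in +/+ (log2 -1.43, adjusted p = 3.15e-09), and fell in Tcf7 F/F:Vav1-Cre (log2 -1.03). Hcst, which encodes DAP10, the partner of NKG2D, was called in +/N440K at 0.55 but not in D/N440K at 0.44 (edgeR adjusted p = 0.101), and the direct comparison of the mutants gave -0.12 (adjusted p = 0.956). Tyrobp (log2 0.57) and Fcer1g (log2 0.61) were also called higher in +/N440K, and Cd247 lower (log2 -1.13). In Tcf7 F/F:Vav1-Cre, Tyrobp (0.20), Fcer1g (0.52) and Hcst (0.37) were not called.

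The kinases and phospholipases downstream split in the same comparisons. Plcg1, the phospholipase of T-cell receptor signalling, fell to 10.04 ± 4.51 CPM in D/N440K, with 57.64 ± 13.1 CPM in +/N440K and 158.6 ± 11.7 CPM in +/+, and it differed between the mutants (log2 -2.57, edgeR adjusted p = 5.05e-07). Plcg2 averaged 434.3 ± 31.3 CPM in D/N440K, 356.7 ± 50.7 CPM in +/N440K and 225.5 ± 6.36 CPM in +/+ (log2 0.95 and 0.67). In Tcf7 F/F:Vav1-Cre, Plcg1 fell (log2 -0.99) and Plcg2 rose (log2 0.97) too. Syk, the kinase that binds DAP12 and FcRγ, rose by 1.01 in D/N440K and 0.49 in +/N440K and differed between them (0.52, edgeR adjusted p = 0.021), whereas Lat, the T-cell adaptor, fell in both (log2 -1.05 and -0.87). In Tcf7 F/F:Vav1-Cre neither Syk (0.53) nor Lat (-0.11) was called.

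Sh2d1a, which encodes SAP, the adaptor of 2B4 and other SLAM receptors, had the largest change of this list in the Tcf7 comparison. It averaged 0.455 ± 0.414 CPM in Tcf7 F/F:Vav1-Cre, against 46.21 ± 0.787 CPM in Tcf7 +/+ (edgeR adjusted p = 1.9e-08). This came from 2 reads in 3 libraries, against 164 reads in 2, so that Tcf7 +/+ was 111-fold higher, with an exact 95% interval for counting error of 30.2 to 924. Cd244a itself was not lower there, and Sh2d1b1, which encodes EAT-2, another 2B4 adaptor, had 21.21 ± 0.231 CPM, against 18.32 ± 1.19 CPM (log2 0.21, edgeR adjusted p = 0.603). In D/N440K and +/N440K, Sh2d1a had log2 values of -0.38 and -1.08 and was not called.

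Other NK-cell surface receptors were called in both directions. Of 22 tested in the Bcl11b table, 14 rose and 3 fell in D/N440K and 9 rose and 3 fell in +/N440K, with list medians of 0.85 and 0.75. Over all genes tested, 6.1% were called higher and 6.31% lower in D/N440K, and 4.79% and 5.3% in +/N440K. Slamf7, a SLAM receptor, rose by 1.28, Itga2, which encodes the NK marker CD49b, by 1.54, and Itga1, which encodes CD49a, by 1.02 in D/N440K. Slamf6 (log2 -1.63) and Cd27 (log2 -0.74) fell there. In Tcf7 F/F:Vav1-Cre, 7 of 28 rose and 10 fell, with a median of -0.26, against 12% and 11.1% of all genes tested. Cd2, a receptor of CD48, fell to 3.773 ± 0.846 CPM, against 39.17 ± 9.17 CPM in Tcf7 +/+ (log2 -3.36, edgeR adjusted p = 8.28e-07). Also among the 10 that fell were Slamf6 (log2 -2.56), Cd27 (-1.94), Itga2 (-1.47), Itga1 (-1.38) and Slamf7 (-0.81). Itgam, Fcgr3, Lilrb4a and Havcr2, which myeloid cells also express, were among the 7 that rose, and were named after their values were seen. Of 8 tested myeloid and dendritic markers, 3 were called higher in those libraries, with a median log2 of 0.41. The part of myeloid cells in these rises was not tested.

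The ligands of these receptors were measured in the same libraries. H2-T23, the gene of the Qa-1 ligand of CD94, averaged 111.6 ± 0.44 CPM in D/N440K and 81.86 ± 10.1 CPM in +/+ (log2 0.46, edgeR adjusted p = 0.0335), and 211 ± 3.84 CPM in Tcf7 F/F:Vav1-Cre and 149.9 ± 10.3 CPM in Tcf7 +/+ (log2 0.49, adjusted p = 0.0124). The classical class I genes H2-D1 and H2-K1 rose by 0.38 and 0.33 in D/N440K, and their log2 values in Tcf7 F/F:Vav1-Cre were 0.45 and 0.50, called as well. B2m, their shared light chain, rose by 0.33 in D/N440K. Cd48, the ligand of 2B4, averaged 81.26 ± 14.1 CPM in Tcf7 F/F:Vav1-Cre, against 131.9 ± 15.2 CPM in Tcf7 +/+ (log2 -0.70, edgeR adjusted p = 0.00604). It rose by 0.79 in +/N440K and stood at 0.56 in D/N440K (adjusted p = 0.0788). Cadm1, a ligand of Crtam, fell in Tcf7 F/F:Vav1-Cre (log2 -1.58). Neither Clec2d, the Klrb1b ligand gene, nor Tnfrsf14, the Cd160 ligand gene, was called in any of the 4 comparisons. Of 13 tested ligands, 4 rose and 2 fell in D/N440K and 3 rose in +/N440K. Of 14 tested in Tcf7 F/F:Vav1-Cre, 3 rose and 3 fell. Over all genes tested, 6.1% were called higher and 6.31% lower in D/N440K, and 4.79% higher in +/N440K. The shares in Tcf7 F/F:Vav1-Cre were 12% higher and 11.1% lower.

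Among 20 transcription factors of NK cells, the T-box factors moved with most of the receptors. Eomes had 141.3 and 94.66 CPM in D/N440K and 79.16 and 73.04 CPM in +/N440K, averaging 118 ± 33 and 76.1 ± 4.33 CPM, against 21.56 ± 5.9 CPM in +/+ (log2 2.44 and 1.79). It averaged 4.636 ± 1.89 CPM in Tcf7 F/F:Vav1-Cre, against 26.2 ± 12.3 CPM in Tcf7 +/+ (log2 -2.44, edgeR adjusted p = 0.000197). Tbx21, which encodes T-bet, rose by 1.16 in D/N440K and 1.03 in +/N440K and had a log2 value of -1.38 in Tcf7 F/F:Vav1-Cre (edgeR adjusted p = 5.09e-05). Id2, an inhibitor of E proteins needed for NK cells, rose by 1.00 in D/N440K, 0.81 in +/N440K and 0.70 in Tcf7 F/F:Vav1-Cre. Id3 fell in all 3, with log2 values of -1.59, -0.96 and -2.67. Lef1 and Bcl11b fell in all 3, with log2 values of -1.85, -1.79 and -1.09 for Lef1 and -1.70, -1.48 and -0.48 for Bcl11b. Bcl11a fell in D/N440K (log2 -0.67) and in +/N440K (log2 -1.10), and stood at -0.09 in Tcf7 F/F:Vav1-Cre (edgeR adjusted p = 0.728). In all, 5 of the 20 factors rose and 9 fell in D/N440K, 4 rose and 9 fell in +/N440K, and 7 rose and 8 fell in Tcf7 F/F:Vav1-Cre. Over all genes tested, 6.1% were called higher and 6.31% lower in D/N440K, and 4.79% and 5.3% in +/N440K. The shares in Tcf7 F/F:Vav1-Cre were 12% and 11.1%.

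**Figure D5:**
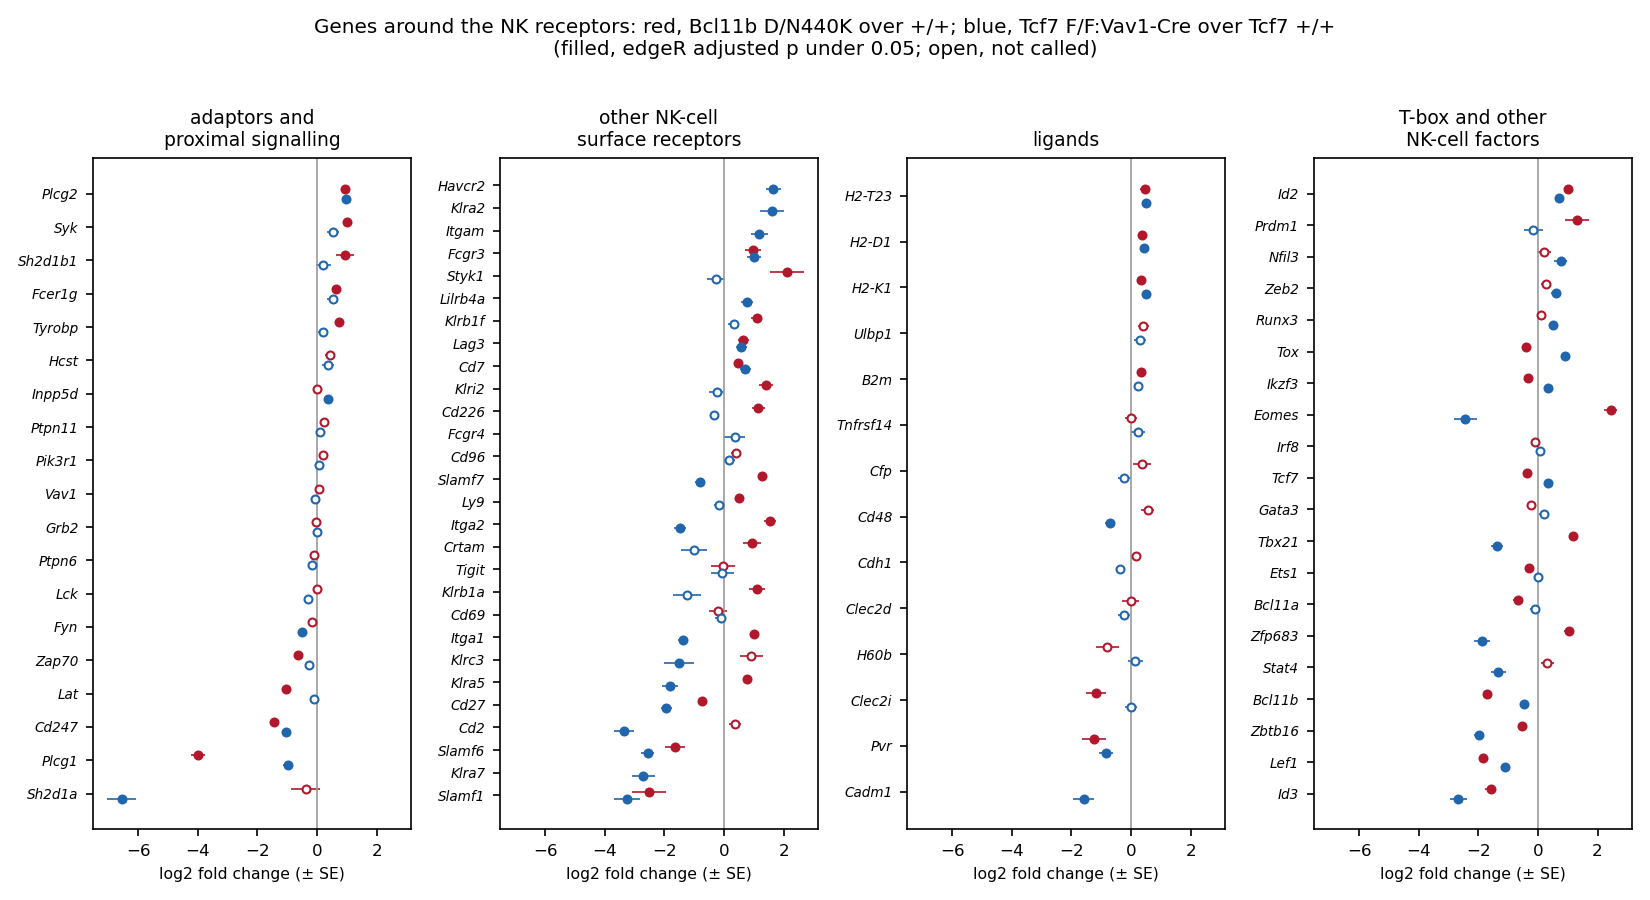
The log2 fold change ± SE of each tested gene of 4 lists (adaptors and proximal signalling, other NK-cell surface receptors, ligands, and T-box and other NK-cell factors) is plotted for D/N440K over Bcl11b +/+ in red and Tcf7 F/F:Vav1-Cre over Tcf7 +/+ in blue, with called genes filled. Eomes lies at 2.44 and -2.44, whereas Sh2d1a, at the foot of the first panel, is called in the Tcf7 comparison and not in that of D/N440K.

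Likeness to the receptor genes was measured as the root-mean-square distance between a gene's log2(CPM + 1) profile, centred within each table, and the mean profile of the 10 genes over the 11 libraries. Among 10253 genes compared, the 8 nearest besides the receptor genes were Arsb at 0.12, Dab2ip at 0.13, Slamf7 and St3gal6 at 0.15, and Serpinb9, Itga1, Itgb1 and Tbx21 at 0.16, against a median of 0.58. These points share libraries and depth, and the distances are a description. Of the receptor genes, Klrb1c was the nearest to the mean profile at 0.14, followed by Klrd1 at 0.19, Klrc2 at 0.26 and Klre1 at 0.27. Klrc1 stood at 0.42, Klrk1 at 0.46, Cd244a at 0.50 and Cd160 at 0.55. Ncr1 at 0.57, near the median of all genes, and Klrb1b at 0.94 were the farthest. The mean profile therefore describes some of the 10 genes much better than others, and so do the genes nearest to it.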

How the data were processed

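RNA of sorted CD24-negative, TCRβ-negative thymocytes was measured in 11 libraries of 5 groups. Libraries followed a modified RamDA-seq protocol with Tn5, per the labels' protocols. The count tables hold whole-number counts per gene that the authors deposited without normalization, and the authors' CPM tables hold those counts divided by TMM-scaled library totals. The tools named in the submitters' processing notes are HTSeq 0.11.2, Picard 2.21.1, SAMtools 1.9, STAR 2.7.3a and fastp 0.20.0, beside edgeR with no version. Which annotation release the authors used is not given in the sources used here. GENCODE M21 supplied names and positions.

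Whole reads were recovered from the authors' CPM for 100% of values within 0.001. Counts were filtered with filterByExpr (minimum count 10), scaled by TMM and fitted with edgeR 4.0.16 in R 4.3.3 (quasi-likelihood, 1 coefficient per group, 3 residual degrees of freedom in each table and 6 in the model of all libraries). Tests were two-sided with Benjamini-Hochberg adjustment over all genes tested, 10910 and 12366 in the Bcl11b and Tcf7 tables. Recovered reads gave the same numbers of calls, 1353 for D/N440K and 1101 for +/N440K over +/+, 58 between the mutants and 2863 for Tcf7 F/F:Vav1-Cre. The model was tested on simulated data. Levels between genes are CPM per kb of exon.

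The receptor genes, the lists and the alternatives were chosen with earlier results of these data known. Besides the 10 receptor genes, each list gave up to 6 called genes with the smallest p, and ligands, adaptors and factors with a stated role were named in addition. Genes shown beyond this rule, such as Sh2d1b1, Olr1 and Itgam, were chosen after their values were seen. Alternatives were RLE and upper-quartile scaling, no or a stricter filter (5 CPM in 2 libraries), DESeq2 1.42.0, limma-voom and limma 3.58.1 on the authors' CPM (pseudocount 1 or 0.5), leaving out each library, the replicate number as a block, and fits of a comparison's own groups alone. A group left with 1 library was assumed to vary like the others. The recovered reads and sex as a term were added after seeing the data. Same-numbered libraries did not deviate together (correlations of -0.16 to 0.07). This check cannot exclude pairing, because in a group of 2 libraries the deviations mirror each other and hold counting noise. Figures used matplotlib 3.10.9. Counts of 999381 to 1842717 per library limit precision for genes of few reads.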

Additional observations from a re-analysis of the deposited data

Results flagged for a closer look

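The receptor genes stood out for effects that differed between the Bcl11b and the Tcf7 libraries, by a test of the difference itself in 1 edgeR model, each genotype against its own +/+ group. For D/N440K minus Tcf7 F/F:Vav1-Cre, the differences on the log2 scale were 4.11 in Ncr1, 3.41 in Klrk1, 2.10 in Klrd1, 3.25 in Klrc1, 2.31 in Klrc2, 2.70 in Klrb1c, 2.17 in Klre1, 3.29 in Cd160 and 0.62 in Cd244a. Cd244a was the nearest of these to the threshold (edgeR adjusted p = 0.0284), and Klrb1b was not called. For +/N440K minus Tcf7 F/F:Vav1-Cre, they were 3.45 in Ncr1, 3.27 in Klrk1, 2.13 in Klrd1, 2.90 in Klrc1, 2.35 in Klrc2, 2.40 in Klrb1c, 1.81 in Klre1 and 3.10 in Cd160, and neither Klrb1b nor Cd244a was called. Both sets of differences use the same Tcf7 libraries and the same Bcl11b +/+ libraries. The libraries also differ in age, so genotype and age cannot be told apart in these values.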

How the results depend on the processing

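Over 40 fold changes of the receptor genes and 670 values under alternatives, 637 kept their direction and side of the threshold, 24 lost a call, 5 gained one and 4 changed sign. The sign changes were all between D/N440K and +/N440K: Klrk1 gave -0.01 and Klrd1 0.03 without D/N440K replicate 2, and Klrc2 gave 0.14 without +/N440K replicate 1 and 0.05 without D/N440K replicate 1. Leaving out 1 library, they ran between -0.01 and 0.28 in Klrk1, -0.09 and 0.03 in Klrd1, and -0.19 and 0.14 in Klrc2. The receptor genes called higher numbered 5 to 10 in +/N440K, 9 to 10 in D/N440K and 0 to 2 between the mutants when 1 library was left out, and 7 or 8 were called lower in Tcf7 F/F:Vav1-Cre. In the differences of effects they were 8 or 9, and 1 was called lower without Tcf7 +/+ replicate 2. DESeq2 called 5 receptor genes higher in +/N440K, 7 in D/N440K and 0 between the mutants. Limma on CPM called 0 there with pseudocount 1 or 0.5, and no filter called 2. DESeq2 called 357, 528 and 4 genes in all for +/N440K, D/N440K and their comparison, and 898 and 859 for the differences of the D/N440K and +/N440K effects. Without a filter 91 genes differed between the mutants and 1606 in Tcf7 F/F:Vav1-Cre, where sex as a term left 1112. Leaving out 1 library gave 726 to 1121, 924 to 1571, 25 to 91 and 1700 to 4612 genes for +/N440K, D/N440K, their comparison and Tcf7 F/F:Vav1-Cre, and 861 to 2642 and 807 to 2587 for the differences. With a replicate block, 982, 1267, 37 and 1996 genes were called. Whether the numbers pair the libraries is not known. The cause of these shifts was not tested. Genes with few reads, such as Klrb1b at 48 to 131 reads over the 2 libraries of each Bcl11b group, limit what smaller changes could be seen.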
